A study of Mus musculus with 8 samples.

Results

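Ets1 ChIP-seq peaks at gene starts were set against how strongly the same genes were transcribed in macrophages with no named polarization. ChIP-seq maps where a protein lies on DNA. The members were the 15526 genes annotated as protein_coding among the 23346 genes of the deposited expression table. The start site was the annotated gene start on the plus strand and the gene end on the minus strand. A gene counted as occupied in a list when a peak summit lay within 1 kb of its start, and its height was the highest fold enrichment of such a summit, as the authors' peak list gives it. Resting expression was the mean normalized count of 3 control libraries, sorted into 6 fixed bins with edges at 1, 10, 100, 1000 and 10000. Peak calls and RNA levels came from different cells and assays, so neither measure was used to choose the other.

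The ChIP libraries came from wild type C57 macrophages raised from bone marrow in medium with M-CSF, a growth factor for this lineage. There was 1 library after M1 polarization and 1 after M2 polarization, and the labels name no polarizing agent. The control RNA libraries came from macrophages of Ets1 f/f mice, whose Ets1 alleles are flanked by loxP sites, and their labels name no polarization. All mice were 8-week-old males, and culture lasted 7 days in 10% serum, with M-CSF at 10 ng/ml. Fixation in 1% formaldehyde took 10 min, and the ChIP libraries had 15 PCR cycles and reads of 150 bp. Occupancy in polarized wild-type cells was thus compared with expression in floxed cells with no named polarization. The ChIP states have no replicates, so no difference between them or between gene groups could be tested across samples. Ranges in brackets are 95% Wilson intervals, which cover counting error over genes only. The SD of a share is over the 3 control libraries, each used alone to set the bins, and the labels do not say whether these are separate animals or cultures.

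The ETS proteins, of which Ets1 is a founding member, are transcription factors that bind DNA around a GGAA core through a shared DNA-binding domain. ETS motifs are common in the promoters of broadly expressed genes, and several family members, PU.1 (Spi1) among them, are expressed in macrophages. Transcription of many widely expressed genes starts inside CpG islands, stretches of DNA that keep the CpG dinucleotides lost from most of the mammalian genome.

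The control libraries held 17706149 to 20259175 recovered reads and 14442 to 14533 detected protein_coding genes. All 10 macrophage markers were present, with means of 4370 to 138291 normalized counts. B cell markers (5 genes) summed to 758 to 964 per library, T cell markers (4 genes, Cd3g at 0 in 2 libraries) to 9.83 to 34.8, neutrophil markers (5 genes, Ly6g at most 17.9) to 8891 to 10263, and stromal markers (5 genes) to 9650 to 14395. In bulk RNA, fewer cells of a type and less RNA per cell cannot be told apart, and the part of these cells in the low bins was not tested. The M1 list held 23089 peaks and the M2 list 22640, with a median fold enrichment of 5.68 in M1 and 5.90 in M2. Of their summits, 33.5% (M1) and 34.5% (M2) lay within 1 kb of a protein_coding start.

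Promoter sequences show what the extremes look like. The windows run from 250 bases before to 50 bases after a RefSeq start (build GRCm38.p6, the same assembly as mm10), and capitals mark the ETS core GGAA or its complement TTCC. Eif3j1 (chr2:122028330-122028629, plus strand) and Larp7 (chr3:127553300-127553599, minus strand) are shown for summits among the highest. Psap (chr10:60277378-60277677, plus strand) and Lyz2 (chr10:117282223-117282522, minus strand) are shown for very high expression with a summit at or below the median height of their bin. Apoe (chr7:19699139-19699438, minus strand) and Tmsb4x (chrX:167209169-167209468, minus strand) are shown for very high expression with no summit. Tsnaxip1 (chr8:105827494-105827793, plus strand) and Zpbp2 (chr11:98550847-98551146, plus strand) are shown for a high summit with almost no expression.
Eif3j1: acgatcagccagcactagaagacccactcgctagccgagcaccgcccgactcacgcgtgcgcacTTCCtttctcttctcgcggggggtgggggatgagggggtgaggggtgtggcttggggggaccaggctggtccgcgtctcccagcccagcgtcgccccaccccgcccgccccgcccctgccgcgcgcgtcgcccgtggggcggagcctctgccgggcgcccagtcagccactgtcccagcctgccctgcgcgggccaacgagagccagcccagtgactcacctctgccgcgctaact
Larp7: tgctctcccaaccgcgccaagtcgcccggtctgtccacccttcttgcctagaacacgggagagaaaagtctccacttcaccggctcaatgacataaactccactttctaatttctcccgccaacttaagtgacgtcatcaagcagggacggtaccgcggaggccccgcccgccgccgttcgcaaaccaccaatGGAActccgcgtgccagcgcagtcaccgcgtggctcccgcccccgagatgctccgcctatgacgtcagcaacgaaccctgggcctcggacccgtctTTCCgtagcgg
Psap: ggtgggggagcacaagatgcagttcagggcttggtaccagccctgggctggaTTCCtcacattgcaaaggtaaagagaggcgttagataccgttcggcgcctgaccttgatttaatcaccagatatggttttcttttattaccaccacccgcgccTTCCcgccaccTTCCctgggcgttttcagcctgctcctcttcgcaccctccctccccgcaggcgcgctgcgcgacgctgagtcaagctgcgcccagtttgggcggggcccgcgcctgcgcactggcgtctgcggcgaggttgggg
Lyz2: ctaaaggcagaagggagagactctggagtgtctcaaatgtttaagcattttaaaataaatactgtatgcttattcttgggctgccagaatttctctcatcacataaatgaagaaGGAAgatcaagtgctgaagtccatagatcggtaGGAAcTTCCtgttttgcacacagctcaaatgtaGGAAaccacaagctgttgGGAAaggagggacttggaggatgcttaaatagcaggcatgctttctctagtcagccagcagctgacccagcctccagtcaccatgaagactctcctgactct
Apoe: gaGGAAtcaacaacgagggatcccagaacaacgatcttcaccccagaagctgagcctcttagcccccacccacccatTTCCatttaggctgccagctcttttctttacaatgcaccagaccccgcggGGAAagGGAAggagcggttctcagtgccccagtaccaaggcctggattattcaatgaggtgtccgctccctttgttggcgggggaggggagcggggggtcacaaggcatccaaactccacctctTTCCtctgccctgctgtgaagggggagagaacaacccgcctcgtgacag
Tmsb4x: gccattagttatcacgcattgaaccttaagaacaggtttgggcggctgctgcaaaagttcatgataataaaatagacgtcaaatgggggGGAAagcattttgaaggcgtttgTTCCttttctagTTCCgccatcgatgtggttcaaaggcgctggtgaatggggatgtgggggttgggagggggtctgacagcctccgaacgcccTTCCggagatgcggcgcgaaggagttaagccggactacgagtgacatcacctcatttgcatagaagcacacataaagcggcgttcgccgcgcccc
Tsnaxip1: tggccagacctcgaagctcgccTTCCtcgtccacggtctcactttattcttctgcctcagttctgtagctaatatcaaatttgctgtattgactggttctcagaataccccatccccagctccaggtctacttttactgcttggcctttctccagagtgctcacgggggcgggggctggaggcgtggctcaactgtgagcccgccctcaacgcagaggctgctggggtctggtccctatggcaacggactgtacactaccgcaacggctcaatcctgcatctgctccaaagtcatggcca
Zpbp2: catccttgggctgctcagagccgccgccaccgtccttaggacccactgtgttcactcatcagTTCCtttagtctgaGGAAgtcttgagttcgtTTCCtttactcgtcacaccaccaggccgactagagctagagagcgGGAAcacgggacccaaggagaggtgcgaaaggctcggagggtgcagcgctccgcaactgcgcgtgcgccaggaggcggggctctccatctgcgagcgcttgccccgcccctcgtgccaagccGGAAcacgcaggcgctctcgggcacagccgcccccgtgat

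Of the highest summits at these genes, that of Eif3j1, 103 bp before the RefSeq start, lay inside its printed window. Those of Larp7, Psap, Lyz2, Tsnaxip1 and Zpbp2 lay outside theirs, so the letters printed for these genes are those at the start and not at the summit. The Eif3j1 and Tsnaxip1 windows had 1 core each, Larp7 had 2, Psap 3, and Zpbp2 and Lyz2 5 each, against 5 in the Apoe window and 4 in the Tmsb4x window, both without a summit. The longer ETS letters CCGGAA stood in the Tmsb4x and Zpbp2 windows and in none of the other 6. The Eif3j1 window was 72.7% G and C, and the Lyz2 window 44.3%. The ratio of CpG observed to CpG expected from the base content was 0.79 for Eif3j1, 1.12 for Larp7, 0.52 for Tsnaxip1, 0.85 for Zpbp2, 0.80 for Psap and 0.07 for Lyz2, against 0.40 for Apoe and 0.99 for Tmsb4x. In these 8 windows the ratios with and without a summit overlapped. Windows of Zgrf1, Fth1, Mpeg1 and Prickle4, chosen by the same rules, are not printed. The ratio was 1.24 for Zgrf1, 0.83 for Fth1 and 0.70 for Prickle4, against 0.18 for Mpeg1, which had no summit. The highest summits of Fth1 and Prickle4 lay inside their windows.

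A promoter summit was present for 8365 of 15526 genes in the M1 list (53.9%) and for 8614 in the M2 list (55.5%). Both lists had one at 7661 genes (49.3%), and at least 1 list had one at 9318 (60.0%). The share was higher in each bin of resting expression than in the one before, up to the fifth of the 6 bins. In M1 it was 8.44% of 1244 genes under 1 normalized count (7.02 to 10.1), 15.3% of 2074 genes at 1 to 10 (13.8 to 16.9), and 34.7% of 2687 genes at 10 to 100 (32.9 to 36.5). It was then 70.7% of 5808 genes at 100 to 1000 (69.5 to 71.9), 78.6% of 3515 genes at 1000 to 10000 (77.2 to 80.0), and 69.7% of 198 genes above 10000 (63.0 to 75.7). The step between 10 to 100 and 100 to 1000 was the widest, and the intervals of the first 5 bins did not overlap. The interval of the highest bin lay below that of the bin before it. The highest bin holds 5 mitochondrial genes, where the lists have no peaks, and on autosomes alone the intervals for either list overlapped, with 84.4% at 1000 to 10000 (83.1 to 85.6) and 79.7% above 10000 (73.2 to 84.9). They also overlapped for genes with no other start within 1 kb, with 81.5% (80.0 to 83.0) and 79.2% (72.3 to 84.8).

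The M2 list gave the same order, with 8.76%, 15.8%, 37.5%, 72.6%, 80.0% and 72.2% from the lowest to the highest bin. Genes with a summit in both lists made up 5.95%, 11.7%, 29.9%, 65.2%, 74.6% and 65.2% of the bins. Genes with a summit in either list made up 11.3%, 19.4%, 42.3%, 78.1%, 84.0% and 76.8%. Setting the bins by each control library alone moved these shares little, with an SD of at most 0.80 percentage points for M1 and for M2 in any bin. In the lowest bin all 3 libraries gave a higher M1 share (10.0%, 10.3% and 8.94%) than their mean did.

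**Figure D1:**
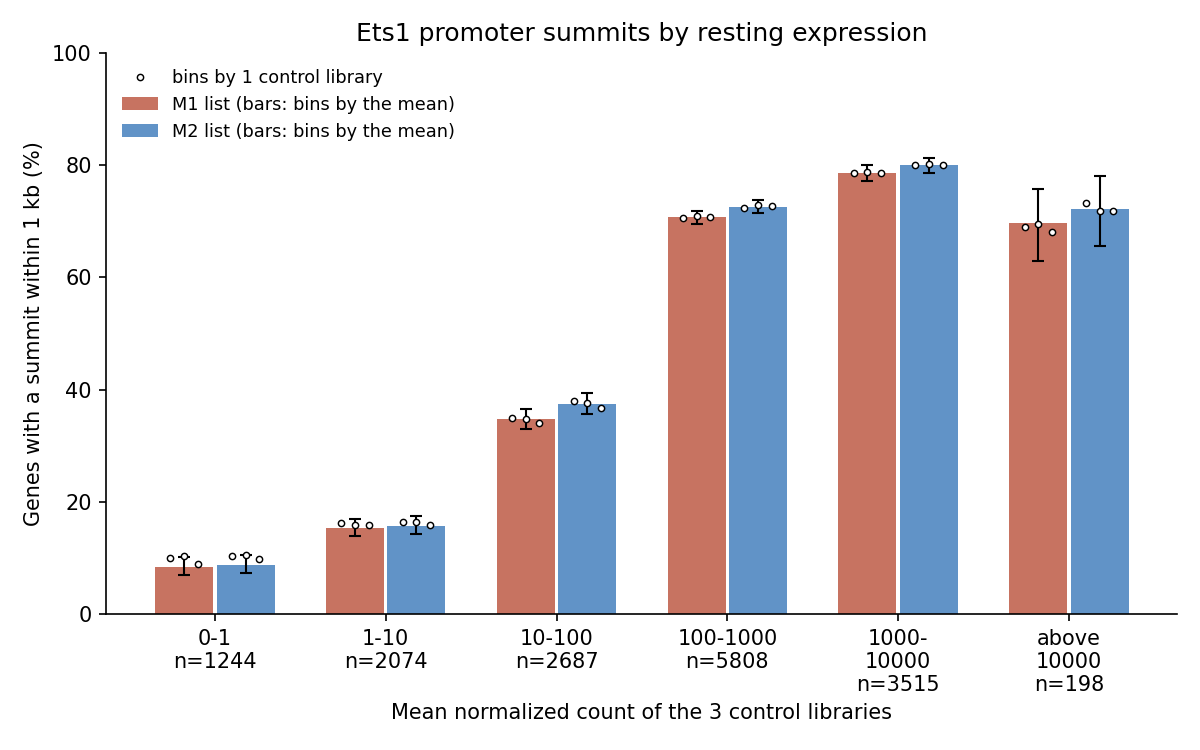
Share of protein_coding genes with an Ets1 summit within 1 kb of the start (y axis, percent) in 6 bins of mean normalized count in the controls (x axis), with the M1 list left of the M2 list. Bars have 95% Wilson intervals, and open circles give the share when 1 control library sets the bins; shares lie at 8.44% and 8.76% in the lowest bin and at 78.6% and 80.0% between 1000 and 10000.

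Normalized counts are not divided by transcript length, so a long gene reaches a higher bin than a short one at the same number of molecules. Per kb of gene length, the M1 shares were 9.45% of 2222 genes under 1 per kb, 22.8% of 2450 at 1 to 10, 61.1% of 4801 at 10 to 100, and 77.5% of 5328 at 100 to 1000. They were 74.8% of 686 genes at 1000 to 10000 per kb (71.4 to 77.9) and 56.4% of 39 genes above that (41.0 to 70.7). The M2 shares were 9.77%, 24.4%, 63.1%, 79.2%, 76.8% and 59.0%. On this scale the share was highest 1 bin earlier, at 100 to 1000 per kb, and lower in each of the last 2 bins. The intervals at 100 to 1000 (76.3 to 78.6 in M1, 78.1 to 80.3 in M2) overlapped those at 1000 to 10000 in both lists (73.5 to 79.8 in M2).

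Read the other way, genes with a summit were expressed much more strongly than genes without one. The median resting mean was 551 normalized counts for genes with an M1 summit, 543 for genes with an M2 summit and 514 for genes with either, against 15.7 for the 6208 genes with neither. The medians in the 3 libraries taken singly were 508, 514 and 521 for genes with either summit and 16.7, 14.7 and 15.0 for genes with neither. Per kb of gene length the medians were 115 for either and 4.43 for neither. Of the genes with either summit 82.0% had a mean of at least 100, against 30.3% of the genes with neither.

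Where a summit was called, its height varied only weakly with expression. Heights exist only above the threshold of the peak lists, which cuts their range, so height and presence are not compared on the same scale. Where a summit was present, the median M1 height over the 6 bins was 6.67, 6.45, 7.19, 7.99, 8.53 and 7.62 fold enrichment. The median M2 height was 6.76, 6.54, 6.83, 7.89, 8.35 and 7.48. Within a bin the heights spread far more than these medians differed: at 1000 to 10000 the M1 quartiles were 6.27 and 11.3 around a range of 2.81 to 22.8. Across genes, Spearman's rho between height and resting mean was 0.13 in M1 (8365 genes) and 0.12 in M2 (8614 genes). At 1000 to 10000 it was −0.002 in M1 and −0.004 in M2, and in the other bins it lay between −0.05 and 0.11. These are descriptions over genes of 1 ChIP library each, and genes with a shared summit are not independent. When genes were ranked by M1 height and split into 4 equal groups, their median resting means were 409, 510, 640 and 712 from the lowest group to the highest, and by M2 height 388, 514, 646 and 678.

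**Figure D2:**
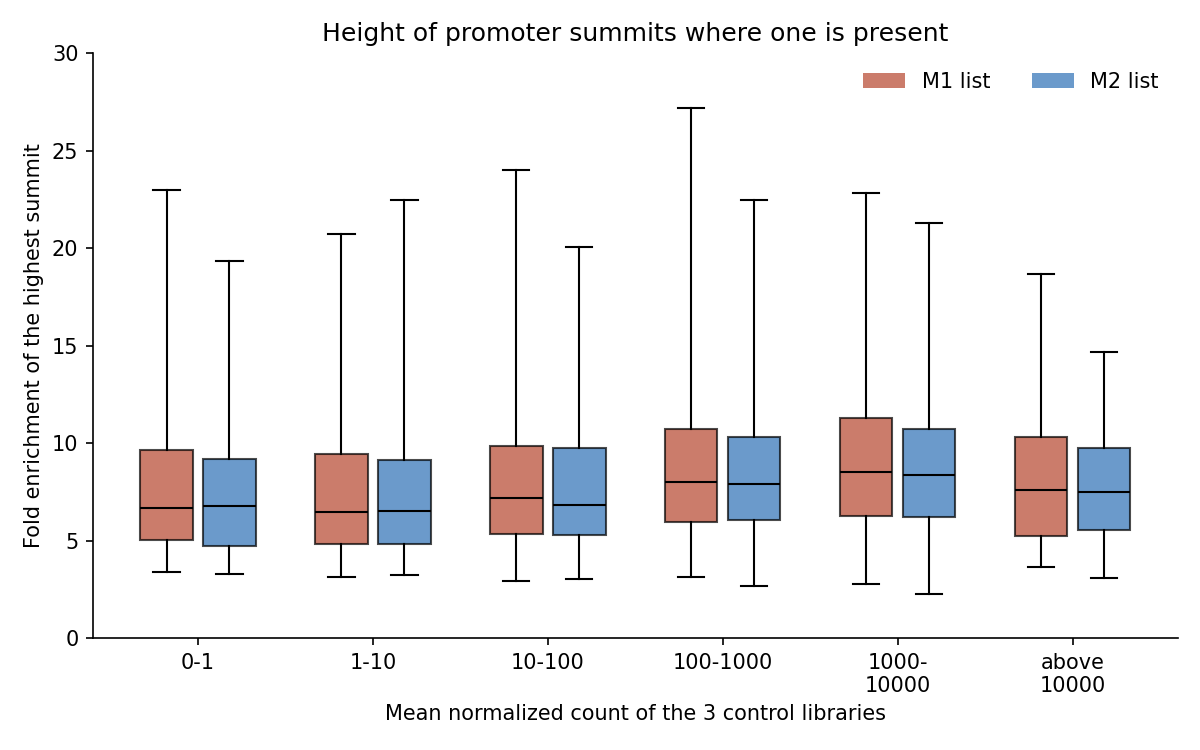
Fold enrichment of the highest promoter summit (y axis) by bin of mean normalized count in the controls (x axis), M1 left of M2. Boxes span the quartiles with the median as a line and whiskers run from the lowest to the highest gene; medians lie between 6.45 and 8.53 and the boxes overlap in all bins.

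Ranked by the geometric mean of the M1 and M2 heights, the top 10 genes all lay under 1000 normalized counts. In the single lists, heights at 1000 to 10000 reached 22.8 in M1 and 21.3 in M2, above those of several of these genes. Heights of 15 or more were most frequent at 1000 to 10000. Of the genes with a summit there, 6.48% reached this height in M1 and 3.59% in M2, against 5.21% and 2.96% at 100 to 1000. The 10 genes with the highest geometric mean of the M1 and M2 heights had heights of 20.7 to 27.2 in M1 and 19.0 to 22.5 in M2, and resting means from 3.71 (Fbxl13) to 771 (Eif3j1). Eif3j1, a subunit of translation initiation factor 3, had a height of 27.2 in M1 and 22.2 in M2, with a summit 69 bp before its start in both. Its counts were 713, 760 and 840 in the 3 controls, and its near copy Eif3j2, to which reads may have been assigned, had 25.5, 96.3 and 31.9. Larp7, which stabilizes the 7SK RNA, had heights of 22.8 in M1 and 20.5 in M2 and counts of 388, 437 and 385.

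Of these 10 genes, 7 lay beside another annotated start within 1 kb, and 3 pairs shared 1 summit. Chchd7 and Plag1 shared summits of 24.0 in M1 and 20.1 in M2, Larp7 and Zgrf1 shared theirs, and Armc10 and Fbxl13 shared summits of 20.7 and 22.5. Fbxl13, a gene of the F-box family, was almost silent with 3.52, 1.97 and 5.64 normalized counts, against 391, 424 and 440 for Armc10 on the opposite strand. Camkmt, a methyltransferase that modifies calmodulin, had 28.1 ± 5.01 (SD, n = 3) and heights of 23.6 in M1 and 19.0 in M2, and Prepl on the opposite strand had 317. Cbwd1 and Camsap1, which caps microtubule ends, completed the set with means of 85.0 and 487.

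Among the most abundant genes, summits ran from near the floor of the lists to above the median of their bin, or were absent. Of the 10 genes with the highest normalized counts, 5 had a summit in both lists, 2 in 1 list and 3 in neither. Above 10000 the median height was 7.62 in M1 and 7.48 in M2. Fth1, the heavy chain of the iron store ferritin, had 217207, 232080 and 250663 normalized counts and heights of 4.59 in M1 and 4.40 in M2. Ftl1, the ferritin light chain, had 85277 ± 7294 and heights of 4.58 and 5.01. Psap, the precursor of the saposins that help to break down sphingolipids in lysosomes, had 214104 ± 9354 and heights of 5.76 and 7.48. Ctsb, a lysosomal protease, stood highest at 8.01 and 10.1, and Actb, cytoskeletal actin, at 7.16 and 7.28 with its highest summit 694 bp and 693 bp past the start and a lower M1 summit 3 bp from it.

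Lyz2, the lysozyme of macrophages and neutrophils, had a summit of 3.73 in M1, at a −log10 q of 1.98, and none in M2. Eef1a1, the main translation elongation factor, had one of 3.78 in M2, at a −log10 q of 2.02, and none in M1. Both lay near the floor of the lists, whose lowest −log10 q was 1.30. Apoe, which carries lipids, had 215187 ± 38274 normalized counts and no summit within 1 kb, with the nearest at 7877 bp in M1 and 16605 bp in M2. Tmsb4x, which binds actin monomers, had 139976 ± 21833 and no summit closer than 20273 bp. The peak lists held no mitochondrial peaks, and mt-Co1, a mitochondrially encoded subunit of cytochrome oxidase, was 1 of 5 mitochondrial genes above 10000 normalized counts, all without a summit.

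The other genes among the 10 with the highest counts and no summit were Mpeg1, which forms pores in engulfed bacteria, Selenop, a selenium carrier, Flna, an actin cross-linker, the scavenger receptor Stab1, the secreted phosphoprotein Spp1, Cybb, the catalytic subunit of the phagocyte oxidase, and Aldoa, a glycolytic enzyme. Their means ran from 25859 (Aldoa) to 57909 (Mpeg1). For 3 of them the start site mattered: at another RefSeq start, Selenop had heights of 6.77 in M1 and 12.9 in M2, Flna 6.39 and 6.50, and Aldoa 10.4 and 10.5. Mpeg1, Stab1, Spp1, Cybb, Apoe and Tmsb4x had none at any RefSeq start in the table. A second, low entry named Aldoa had 10.8 normalized counts and also no summit.

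Among all genes with a RefSeq start, 436 at 1000 to 10000 normalized counts had no summit at the table's start, and 176 of them had one at a RefSeq start. With any such start allowed, a choice made after the data were seen, the share with either summit was 12.3%, 21.3%, 47.1%, 84.4%, 90.9% and 87.7% from the lowest to the highest bin. The same genes at the table's start gave 11.0%, 19.5%, 43.8%, 78.7%, 84.8% and 79.2%. The top bin came closer to the one before it, and the order of the bins did not change. Distances to the nearest summit exist for genes on sequences that hold a peak, which leaves out the mitochondrial ones. Of 600 such genes at 1000 or more with no promoter summit, 280 had a summit of either list within 5 kb of the start, against 150 of 1102 such genes under 1.

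A small set of silent genes carried high summits. The 10 highest among genes under 1 normalized count had heights of 12.4 to 23.0 in M1 and 11.1 to 19.3 in M2. Tsnaxip1, named for binding the translin partner Tsnax, had 0, 0.98 and 0 normalized counts and heights of 16.3 and 15.7, and Ranbp10 on the opposite strand had a mean of 1749. Pjvk, a gene of hearing, had heights of 14.7 and 14.1 beside Prkra at 425. Styxl1 had heights of 13.5 and 12.2 beside the citric acid cycle enzyme gene Mdh2 at 2098, and Vmn1r4, a vomeronasal receptor, had heights of 12.6 and 12.9 beside Nt5c3 at 440. AY074887 stood beside the proteasome gene Psma4 at 1235, and Gm27021 beside Cox4i1 at 3196.

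Nupl1 had 0 counts in all controls, and its neighbour on the same strand, Gm49336, to which reads may have been assigned, had 825. The 0 of Nupl1 is thus no sure sign of silence. Zpbp2, known from sperm, and Prickle4 had no other start within 1 kb, with heights of 14.8 and 13.3 for Zpbp2 and 13.6 and 12.5 for Prickle4. Gm10800, a predicted gene, led the set with heights of 23.0 and 19.3. Its −log10 q of 2027 in M1 and 2487 in M2 stood far above the list medians of 5.87 and 7.28, and its counts were 0, 2.95 and 0. Peaks were read as deposited, with no filter here for regions of high background signal. The part of such background in the Gm10800 summit was not tested.

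Genes beside another start had a higher share with a summit than genes with no such neighbour in every bin but the highest. Of the 140 genes under 1 with a summit in either list, 64 had another annotated start within 1 kb (45.7%, 37.7 to 54.0), with a median neighbour mean of 373. Of the 1104 without a summit, 47 did (4.26%, 3.22 to 5.62), with a median neighbour mean of 13.9. Silent genes whose neighbour had a mean of at least 100 were occupied in 75.8% of 62 cases (63.8 to 84.8), those with a weaker neighbour in 34.7% of 49 (22.9 to 48.7), and those with no neighbour in 6.71% of 1133 (5.39 to 8.32). Median heights of silent genes were 8.05 in M1 and 8.63 in M2 beside a neighbour of at least 100, and 5.06 and 4.86 with no neighbour. Above 10000 the order was not seen, with 64.3% of 14 genes beside a strong neighbour and 79.2% of 159 with none.

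Genes with no other start nearby still showed the relation to expression. Their shares with either summit were 6.71%, 13.8%, 34.8%, 72.8%, 81.5% and 79.2% from the lowest to the highest bin. Because a summit can serve several starts, the 8365 genes in M1 rested on 7374 distinct summits and the 8614 in M2 on 7605.

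**Figure D3:**
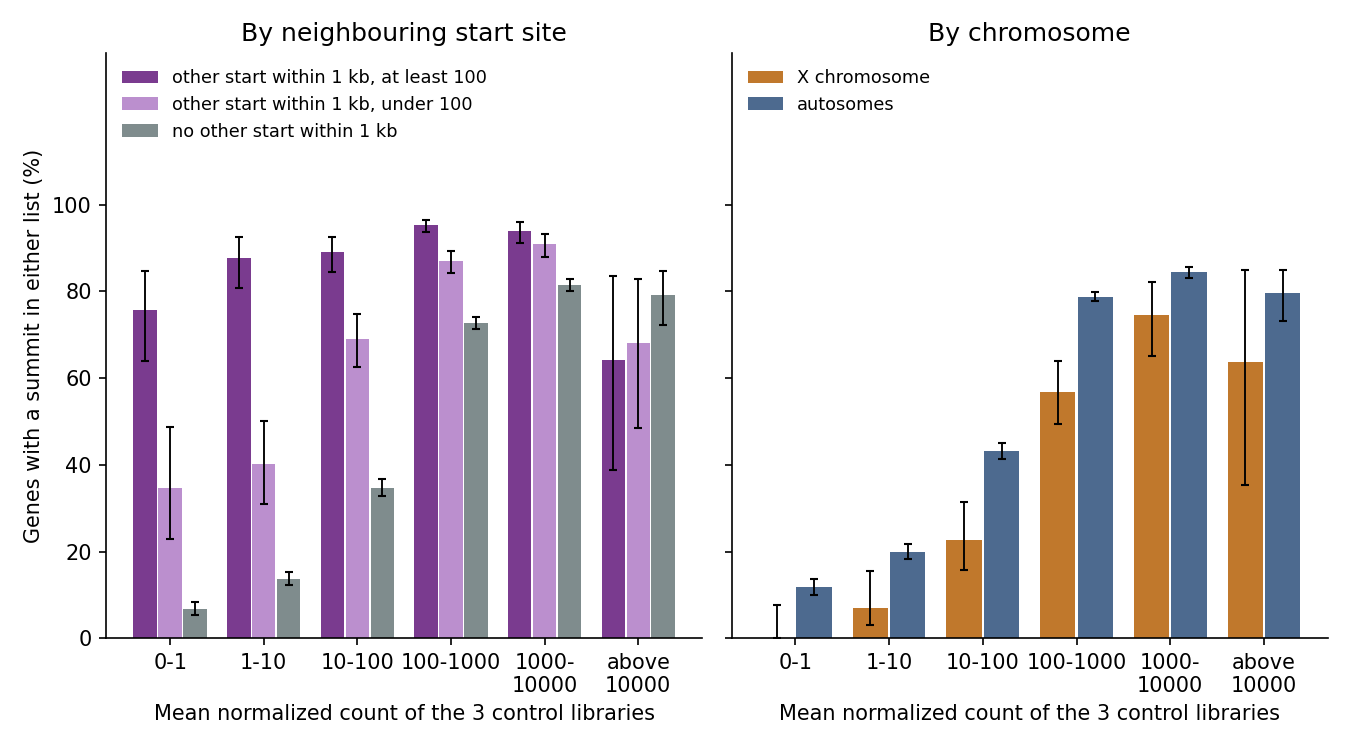
Share of genes with a summit in either list (y axis, percent, with 95% Wilson intervals) by bin of mean normalized count (x axis). On the left, genes beside another start within 1 kb whose gene has a mean of at least 100, beside a weaker one, and with none stand at 75.8%, 34.7% and 6.71% in the lowest bin; on the right, X-linked genes stand below autosomal genes in every bin, 56.8% and 78.8% at 100 to 1000.

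A smaller share of X-linked than of autosomal genes had a summit in each bin. Of 508 genes on X, 41.1% had a summit in either list (36.9 to 45.5), against 60.8% of 14985 autosomal genes (60.0 to 61.6). At 10 to 100 the shares were 22.6% on X and 43.2% on autosomes, at 100 to 1000 56.8% (49.4 to 63.9) and 78.8% (77.7 to 79.9), and at 1000 to 10000 74.5% (65.0 to 82.1) and 84.4% (83.1 to 85.6). Under 1, none of 46 X-linked genes had one, which allows a share of up to 6.52% as 3 counts of the total (Wilson upper bound 7.71), against 11.7% on autosomes. Above 10000 the intervals overlapped. Where a summit was present, heights were alike, with medians of 8.00 on X and 8.03 on autosomes in M1 and of 7.76 and 7.87 in M2. In male mice X linkage and a single copy per cell cannot be told apart.

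The highest summit of a gene mostly lay close to the start. Its median position was 2 bp before the start in M1 and 3 bp after it in M2, and 75.4% of M1 summits and 74.7% of M2 summits lay within 250 bp. About equal shares lay on either side, with 50.5% before the start in M1 and 49.3% in M2. In silent genes the summits were more scattered, with 59.0% within 250 bp in M1 and 54.1% in M2, against 75.9% and 75.8% at 1000 to 10000. At the edge of the window, Efcab9 and Hic1 were counted with a summit 1000 bp before the start and Sod2, the mitochondrial superoxide dismutase, with one 997 bp after it. Cyp4f18, Foxe1 and Prodh were left out with the nearest at 1001, 1002 and 1005 bp.

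The M1 and M2 lists marked largely the same promoters. Of the genes with an M1 summit 91.6% had one in M2, and of those with an M2 summit 88.9% had one in M1. The overlap was lowest in silent genes: in the lowest bin it was 70.5% of M1 genes and 67.9% of M2 genes, and at 1000 to 10000 it was 94.9% and 93.3%. Across the 7661 genes with both, Spearman's rho between the heights was 0.80, and the median ratio of M1 to M2 height was 1.03 (quartiles 0.88 and 1.18). The ratio lay between 1.00 and 1.04 in all 6 bins. The 704 genes in M1 only had a median height of 4.95, against 8.37 for M1 heights of genes in both, and the 953 in M2 only had 5.07, against 8.32. Their median resting means were 233 and 231, against 597 for genes in both.

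Several of the highest summits of 1 list were near the 1 kb edge in the other. Gm49027 and Sgms1, a sphingomyelin synthase, had M1 heights of 12.1 and 12.0 with M2 summits at 1061 and 1090 bp. Tor1aip2 and Trip12, a ubiquitin ligase, had M2 heights of 15.3 and 12.0 with M1 summits at 1013 and 1038 bp, and Whrn one of 11.0 with an M1 summit at 1088 bp. The divergent pair Abhd18 and Mfsd8 (13.0 in M1) had no M2 summit nearer than 46982 bp. Usp11 (11.5 in M2) and the ribosomal protein gene Rps26 (11.4 in M2) had none in M1 nearer than 15463 bp. In all, 97 of the M1-only genes and 77 of the M2-only genes had a summit of the other list between 1 and 2 kb from the start.

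Base composition went along with occupancy at every level of expression. RefSeq windows were found for 12161 of the 15526 genes (78.3%), below the 80% needed to speak for all of them, so a statement on all protein_coding genes is void and the shares describe these windows. By bin, only 100 to 1000 and 1000 to 10000 passed, each with 81.5%. Occupancy was measured again at each window's own start. CpG-rich windows were those with a ratio of CpG observed to expected of at least 0.6 and at least 50% G and C, a limit set after the data were seen. They made up 78.2% of 7713 windows with a summit in either list, against 33.8% of 4448 without.

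At 100 to 1000 normalized counts 88.4% of CpG-rich and 61.1% of CpG-poor windows had a summit, and at 1000 to 10000 93.7% and 66.9%. In the bins with lower coverage the shares were 23.8% and 5.29% under 1, 30.4% and 11.1% at 1 to 10, 59.7% and 27.0% at 10 to 100, and 93.3% and 71.9% above 10000. The share was higher from bin to bin up to 1000 to 10000 in both kinds of promoter, and CpG-rich windows lay above CpG-poor ones in every bin with no overlap of the intervals. Median heights were 8.45 in M1 and 8.22 in M2 for CpG-rich windows, and 6.77 and 6.84 for CpG-poor ones.

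**Figure D4:**
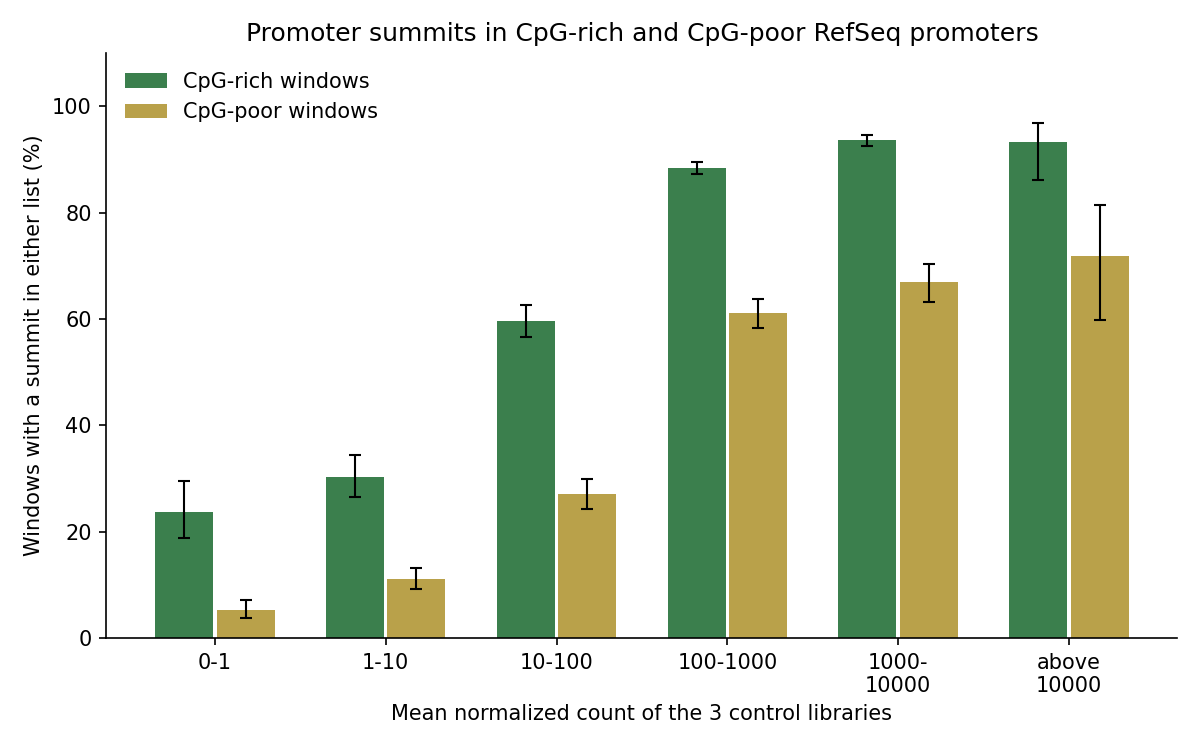
Share of RefSeq promoter windows with a summit in either list (y axis, percent, with 95% Wilson intervals) by bin of mean normalized count in the controls (x axis), CpG-rich left of CpG-poor. CpG-rich windows lie higher in each bin, with 23.8% and 5.29% in the lowest and 93.7% and 66.9% at 1000 to 10000.

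ETS letters were more frequent in occupied windows, and so were letters of other factors. CCGGAA, on either strand, stood in 32.9% of windows with a summit and 12.1% of those without, and its extension CCGGAAGT, counted again within it, in 10.1% and 2.59%. Over all 32817 mouse promoters of the table the shares were 14.9% and 3.89%. The bare core GGAA, part of both, stood in 95.7% and 95.3%. Of 6 letters in another order, CCGAGA, the shares were 15.8% and 10.5%. GGGCGG, the GC box of the Sp family, stood in 70.0% and 43.4%, CCAAT, the NF-Y box, in 40.3% and 35.2%, TGACGTCA, the cyclic AMP response element, in 3.88% and 1.33%, and GCGCATGC, from the NRF1 site, in 6.35% and 2.16%. The TATA letters TATAAA went the other way with 5.95% and 11.9%. A match of letters is a description and no binding site.

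Over all bins together, the 8 ETS letters went with summits in both kinds of promoter. Among CpG-rich windows 90.9% of 728 with the letters had a summit (88.6 to 92.8) and 78.9% of 6810 without them. Among CpG-poor windows 70.1% of 164 with the letters did (62.7 to 76.6) and 35.1% of 4459 without. The letters stood in 1.33% of windows under 1 and 10.3% at 100 to 1000. In CpG-rich windows the shares with and without letters were 91.4% and 88.0% at 100 to 1000, with overlapping intervals. At 1000 to 10000 they were 95.9% and 93.4%, overlapping too. In CpG-poor windows they were 83.5% and 59.6%, then 81.8% and 66.1%, with overlapping intervals in the latter bin only. At 10 to 100 they were 81.5% of 65 (70.4 to 89.1) and 58.2% (55.0 to 61.3) in CpG-rich windows. In CpG-poor windows of that bin they were 63.3% of 30 (45.5 to 78.1) and 25.9% (23.2 to 28.8). At 1 to 10 they were 68.2% of 22 (47.3 to 83.6) and 28.7% (24.9 to 32.8) in CpG-rich windows. In CpG-poor windows at 1 to 10 the order was reversed, with 6.67% of 15 and 11.2%, and the intervals overlapped. Only 12 windows under 1 held the letters. Height did not follow: windows with the letters had median heights of 7.95 in M1 and 7.93 in M2, and windows without them 8.08 and 7.96. Summits inside a window with 50 bp to each side numbered 2973 in M1 and 2888 in M2. Within 50 bp of them, CCGGAA occurred 1.64 times per kb in M1 and 1.84 in M2, against 1.52 and 1.57 elsewhere in the windows. The bare core GGAA was less frequent near them, with 11.2 and 11.5 per kb against 11.8 and 11.9. TATAAA was also lower, with 0.10 and 0.11 against 0.18 and 0.18. GGGCGG occurred 8.21 and 7.85 times per kb near summits against 5.68 and 5.64, and CCAAT 3.71 and 3.41 times against 2.35 and 2.34. Summits centred on the start, and the part of position relative to the start in these rates was not tested.

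By gene group, each group's share with either summit was set beside the share of all protein_coding genes weighted to the group's own bins. Both shares, and the absences named below, are at the table's start, and the groups were not counted again at other RefSeq starts. Genes of protein synthesis stood above it, with intervals that did not reach it: 94.3% of 35 aminoacyl-tRNA synthetases against 79.8%, 92.6% of 54 translation initiation factors against 80.1%, and 90.5% of 84 cytosolic ribosomal protein genes against 80.1%. Eprs, which charges tRNA with glutamate and proline, had heights of 14.4 in M1 and 11.6 in M2 at 3055 ± 521 normalized counts (SD, n = 3), and Eif5a had 17.9 and 12.7 at 7360 ± 406. Rplp0, a ribosomal stalk protein, had 10.2 and 10.6 at 21398 ± 673. Rpl3, Rps2 and Rpl6 had no summit at means of 10105 to 10547.

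Of 89 nuclear respiratory chain genes 84.3% had a summit against 74.1% (interval 75.3 to 90.4), and of 77 mitochondrial ribosomal protein genes 85.7% against 77.7%, which lay inside the interval (76.2 to 91.8). The intervals also covered the weighted share for proteasome subunits (81.6% of 38 against 81.5%), splicing factors (82.6% of 46 against 79.5%) and lysosome genes (86.7% of 30 against 80.2%). For Zfp zinc fingers (66.2% of 337 against 60.9%) the lower bound, 61.0, lay just above it. Replication-dependent histone genes had a summit in 76.1% of 46 cases against 26.2%. They lie in clusters, and 25 distinct summits in M1 served 32 of them. Their median was 3.27 normalized counts, and transcripts of these genes largely lack poly(A) tails.

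Macrophage groups lay below. Of 30 macrophage identity genes 60.0% had a summit against 80.5%, of 29 chemokine genes 34.5% against 59.0%, of 25 classical activation genes 52.0% against 68.4%, of 21 alternative activation genes 42.9% against 60.4%, and of 24 interferon-stimulated genes 70.8% against 82.8%. The intervals of the identity genes (42.3 to 75.4) and chemokines (19.9 to 52.7) did not reach the weighted share, and those of the other 3 did. Csf1r, the receptor for M-CSF, had 45888 ± 3282 normalized counts and a summit of 3.64 in M1 only, and Adgre1, which codes for F4/80, had 68331 ± 8784 and one of 5.16 in M1 only. C1qa, Cd36, Mrc1 and Marco had none at means of 10632 to 16158.

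Single activation genes stood at both ends. Stat2, which signals from interferon receptors, had heights of 11.9 in M1 and 10.5 in M2, Tgfb1, a cytokine that restrains inflammation, 11.7 and 8.53, and Socs3, an inhibitor of cytokine signalling, 9.29 and 8.78. Ccl3 had 6.86 and 10.0 and Ccl2 7.57 and 9.37, while Ccl6 (8410 ± 625), Ccl9 (5581 ± 102) and Pf4 (3496 ± 923) had none. Irf5, a regulator of inflammatory cytokines, and Tlr2 had no summit at means of 3852 and 3615.

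Most measured genes of other tissues had no summit, as did most genes at their low expression. None of 62 olfactory receptor genes had a summit, which allows a share of up to 4.84% as 3 counts of the total (Wilson upper bound 5.83), against a weighted share of 14.7%. The other groups were small, and their intervals covered the weighted share. Of 25 genes sought per group, the expression table held 14 neuronal, 14 muscle, 7 liver and 12 germ cell genes, and the shares leave out the rest. Hox genes had 17.9% of 28 against 29.9%, vomeronasal receptors 1 of 19 (Vmn1r4) against 14.2%, neuronal genes 1 of 14 (Syn1) against 25%, and muscle genes 1 of 14 (Tnni2) against 24.7%. Liver genes had 1 of 7 (F9) against 18.2%, keratins 1 of 9 against 24.8%, and germ cell genes 3 of 12, or 25%, against 23.6%. Of the germ cell genes, Gdf9, a growth factor of the oocyte, had heights of 11.3 in M1 and 12.1 in M2 at 16.6 normalized counts.

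**Figure D5:**
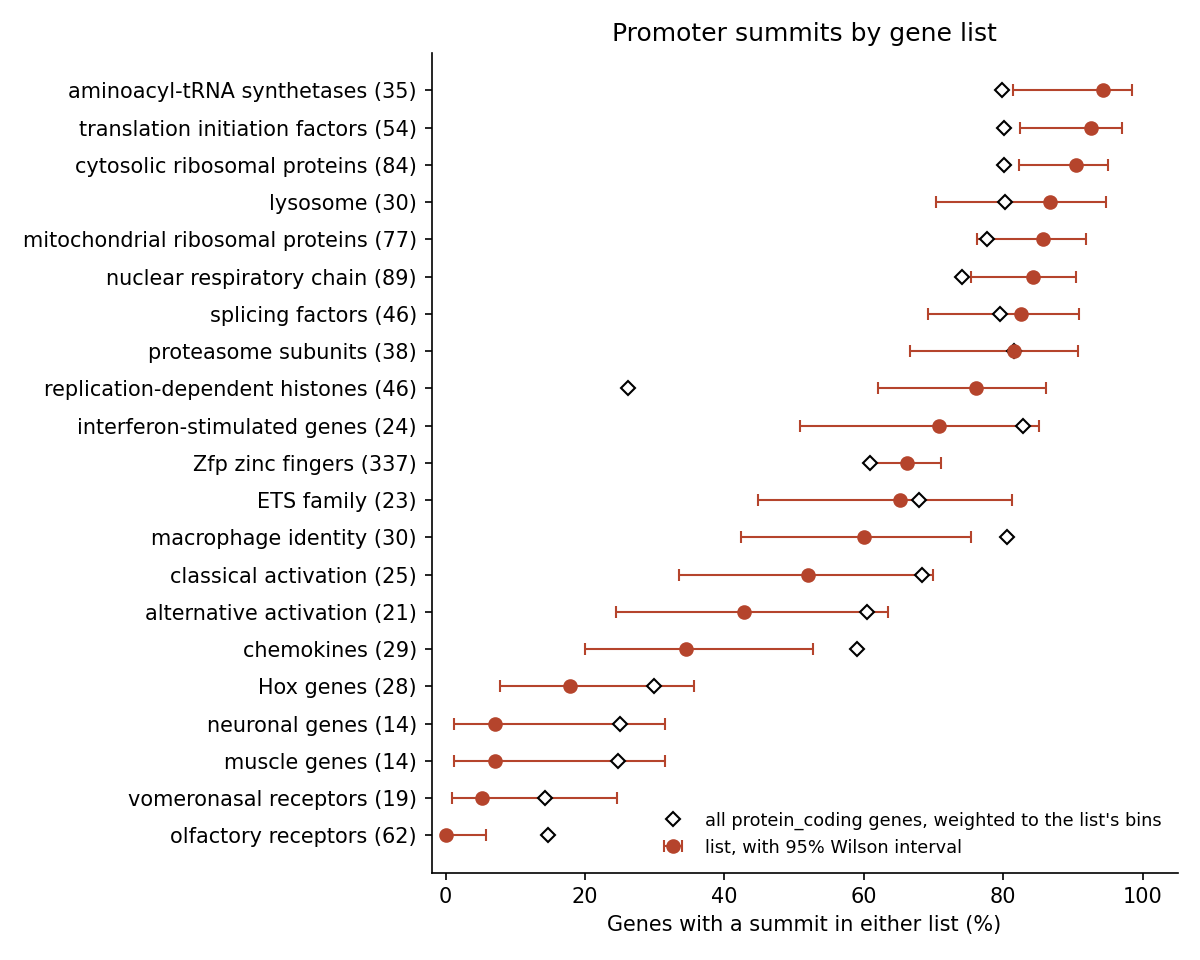
Share of genes with a summit in either list (x axis, percent) for gene lists of 14 or more measured genes (y axis, with the number of genes). Filled circles have 95% Wilson intervals and diamonds give all protein_coding genes weighted to the list's expression bins; aminoacyl-tRNA synthetases stand at 94.3% against 79.8% and chemokines at 34.5% against 59.0%.

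Of the ETS family itself, 15 of 23 measured genes had a promoter summit (65.2% against a weighted 67.9%). Ets1, whose protein was pulled down, had 3641, 3337 and 2869 normalized counts and no summit within 1 kb, with the nearest 16169 bp away in M1 and 15905 bp in M2. Ets2, its closest relative, had heights of 10.6 in M1 and 11.1 in M2 at 2930 ± 270. Etv5 had 13.8 and 11.9, Gabpa, the DNA-binding subunit of the GA-binding protein, 11.5 and 11.1, and Elf1 7.50 and 12.3. Spi1, which codes for PU.1, had 7876 ± 1027 normalized counts and heights of 4.88 and 4.31, 816 and 836 bp past its start. Fli1 and Etv3 had none at means of 1723 and 2952.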

How the data were processed

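RNA was read in 3 control libraries, and Ets1 ChIP-seq in 1 library after M1 and 1 after M2 polarization. The deposited expression table holds normalized counts, a signal that the authors made by dividing gene read counts by 1 factor per library; whole reads were recovered from its steps for 100.0% of values to within 0.001. The table's knockout values, group means, log2 fold changes and p-values, as deposited by the authors, were not used. The deposited peak lists give −log10 p and −log10 q values, a score and a fold enrichment (a ratio to background) for each peak, 1 list per library. Positions were read as deposited, on mm10 per the labels. HISAT2 2.1.0, Bowtie2 2.2.3 and HTSeq 0.6.0 for RNA, and BWA, SAMtools, MACS2, deepTools and DESeq2 for ChIP, are named in the submitters' processing notes, with no order. Not given in the sources used here are the annotation release, any input control and the threshold for a peak. RNA came with a TruSeq RNA kit, and strand in counting is not stated. In the table, 25 symbols stored as dates were restored by gene identifier.

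A gene's height is the highest fold enrichment of a summit within 1000 bp of its start. Shares carry 95% Wilson intervals, which cover counting error over genes only, and no test across samples was possible. Promoter windows (300 bases) came from RefSeq tables of build GRCm38.p6, matched by symbol or a single synonym, chromosome and strand. Of a gene's windows, the one nearest the table's start was used. Letters were searched on both strands. Scripts used Python 3.11.15, NumPy 2.4.6, pandas 2.3.3 and SciPy 1.17.1, and were checked on simulated data. The alternatives were other distances, stricter peaks, peak overlap, other start sites, and other measures of expression; left-out libraries and the sets added later are in the closing section. Genes named were the 10 with the highest heights, the 10 with the highest means with any and with no summit, the 10 highest silent genes, the 5 highest of 1 list only (1 of these genes is not reported here), 3 on each side of the 1 kb limit, members of the lists by mean, and the ETS family. Selenop, Flna and Aldoa at other starts follow from a choice made after values were seen. The members, the 24 gene lists and the rules were chosen with earlier results of these data known.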

Additional observations from a re-analysis of the deposited data

How the results depend on the processing

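Most values moved with the definition of an occupied promoter, while their direction was kept in all alternatives but 1. The share of genes with a summit was 53.9% in M1 and 55.5% in M2 as reported. The value was 41.3% in M1 and 41.8% in M2 within 250 bp, and 49.5% in M1 and 50.6% in M2 within 500 bp. Values were 56.8% in M1 and 58.8% in M2 within 2000 bp, and 30.9% in M1 and 34.7% in M2 for peaks with a −log10 q of at least 10. It came to 41.8% in M1 and 41.5% in M2 for peaks at or above the median −log10 q of their list, and 54.7% in M1 and 56.7% in M2 for any overlap of a peak with the 1 kb around the start. This was 46.6% in M1 and 48.1% in M2 for genes with no other start within 1 kb, and 52.3% in M1 and 54.0% in M2 at the RefSeq gene start. The difference in that share between 1000 to 10000 and 0 to 1 was 70.2 points in M1 and 71.2 points in M2 as reported. It stood at 55.8 points in M1 and 56.5 points in M2 within 250 bp, and 65.5 points in M1 and 67.1 points in M2 within 500 bp. It was 47.8 points in M1 and 52.6 points in M2 for peaks with a −log10 q of at least 10, and 60.0 points in M1 and 60.2 points in M2 for peaks at or above the median −log10 q of their list. The value was 65.3 points in M1 and 67.1 points in M2 per kb of gene length, and 52.3 points in M1 and 64.2 points in M2 for genes above 0 in all 3 controls. Leaving out each control library in turn gave 69.5 points to 70.2 points in M1 and 70.4 points to 71.2 points in M2. The ratio of median heights between the same bins was 1.28 in M1 and 1.23 in M2 as reported. Values were 1.13 in M2 within 250 bp, and 1.14 in M2 within 500 bp. It came to 1.36 in M1 and 1.32 in M2 within 2000 bp, and 1.01 in M1 and 1.04 in M2 for peaks with a −log10 q of at least 10. This was 1.15 in M1 and 1.02 in M2 for peaks at or above the median −log10 q of their list, and 1.63 in M1 and 1.67 in M2 for genes with no other start within 1 kb. It stood at 1.38 in M1 and 1.28 in M2 at the RefSeq gene start, and 1.18 in M2 per kb of gene length. It was 1.29 in M2 with the median of the 3 controls, and 1.22 in M2 with recovered reads scaled to the same total. The value was 1.72 in M1 and 1.29 in M2 for genes above 0 in all 3 controls. Leaving out each control library in turn gave 1.29 to 1.37 in M1 and 1.27 to 1.29 in M2. Spearman's rho of height against resting mean was 0.13 in M1 and 0.12 in M2 as reported. Values were 0.12 in M1 and 0.11 in M2 within 250 bp, and 0.12 in M1 and 0.10 in M2 within 500 bp. It came to 0.14 in M1 and 0.13 in M2 within 2000 bp, and 0.011 in M1 and -0.027 in M2 for peaks with a −log10 q of at least 10. This was 0.057 in M1 and 0.013 in M2 for peaks at or above the median −log10 q of their list, and 0.13 in M1 and 0.12 in M2 for any overlap of a peak with the 1 kb around the start. It stood at 0.17 in M1 and 0.16 in M2 for genes with no other start within 1 kb, and 0.12 in M1 and 0.11 in M2 at the RefSeq gene start. It was 0.096 in M1 and 0.085 in M2 per kb of gene length, and 0.12 in M1 and 0.11 in M2 for genes above 0 in all 3 controls. Leaving out each control library in turn gave 0.13 to 0.13 in M1 and 0.12 to 0.12 in M2. The ratio of median resting means, genes with over genes without a summit, was 22.7 in M1 and 25.6 in M2 as reported. The value was 10.1 in M1 and 10.2 in M2 within 250 bp, and 17.1 in M1 and 18.9 in M2 within 500 bp. Values were 25.7 in M1 and 29.3 in M2 within 2000 bp, and 7.15 in M1 and 8.57 in M2 for peaks with a −log10 q of at least 10. It came to 11.7 in M1 and 11.9 in M2 for peaks at or above the median −log10 q of their list, and 24.1 in M1 and 27.6 in M2 for any overlap of a peak with the 1 kb around the start. This was 31.7 in M1 and 34.3 in M2 for genes with no other start within 1 kb, and 19.3 in M1 and 21.9 in M2 at the RefSeq gene start. It stood at 18.6 in M1 and 20.6 in M2 per kb of gene length, and 7.99 in M1 and 8.47 in M2 for genes above 0 in all 3 controls. Leaving out each control library in turn gave 22.2 to 23.6 in M1 and 24.9 to 26.6 in M2. The overlap of the lists was 89.8% of M1 genes and 87.9% of M2 genes within 500 bp, and 89.6% and 79.9% for peaks with a −log10 q of at least 10. Among silent genes with a summit 35.7% had another start within 500 bp, and among those without, 6.34% had one within 2000 bp and 2.72% when only protein_coding neighbours counted. In the 250 bases before the start alone, CCGGAA stood in 25.9% of windows with a summit and 10.0% of windows without, and CCGGAAGT in 7.22% and 2.0%. The exception in direction was rho in M2 for peaks with a −log10 q of at least 10, which turned negative; the cause was not tested. The first 5 bins stood in rising order as reported and in 31 of 34 cases, each alternative counted per list without the reported bins; the exceptions were both lists per kb of gene length, and M1 for genes above 0 in all 3 controls. The highest bin lay below the one before it in all 34 of these. For genes above 0 in all 3 controls, a mean under 1 allows no more than 1 read in each library. The lowest bin of that set holds only such genes, with an M1 share of 26.3%. Its difference, height ratio and bin order rest on them. Leaving out the mitochondrial genes and unplaced sequences, or keeping autosomes only, were both added after the data were seen. Neither moved the shares by bin or their difference beyond the intervals. Over all bins, the autosomal share was 54.67% in M1, just above the interval as reported (53.09 to 54.66). In M2 it was 56.21%, inside the interval (54.70 to 56.26). No paired analysis was possible because the results come from no test and the knockout libraries, which share the replicate numbers of the controls, were not used. With 1 ChIP library per state, what a second library would add to presence or height is unknown, and a promoter without a summit is one without a called peak at this depth.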

Other observations

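Genes outside the protein_coding class also had summits at their starts. Of 1226 lincRNA genes, which code for long RNAs between genes, 28.5% had a summit in either list (26.1 to 31.1), with 18.1% under 1 normalized count, 31.4% at 1 to 10, 41.4% at 10 to 100 and 51.4% of 37 genes at 100 to 1000. Of 1276 antisense genes 32.4% had one (29.9 to 35.1), with 21.4%, 35.9%, 42.2% and 53.8% in the same bins. Under 1, both classes stood above protein_coding genes, at 11.3%, and at 100 to 1000 below them, at 78.1%. Antisense genes often begin near a protein_coding start, and the counting is not stated to use strand, so their reads cannot be told apart from those of their partners.

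Of 2114 processed pseudogenes, copies of spliced transcripts that usually lack a promoter of their own, 2.51% had a summit (1.92 to 3.26). Their share was 2.31% under 1, 2.43% at 1 to 10, 3.11% at 10 to 100 and 2.59% of 116 genes at 100 to 1000, with overlapping intervals. Reads of a pseudogene can come from its parent gene, so these counts are uncertain.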
